A study of Nematostella vectensis with 96 samples.

Results

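The 60 genes described here were the genes of the sea anemone *Nematostella vectensis* whose expression followed a day with a peak in the night most closely in blue and green light. They were chosen from those conditions by a fixed rule. The rule kept libraries of 100000 counts or more and genes whose mean count reached 10. The level of a gene was log2(CPM+5), where CPM is the count of the gene scaled to a common library total (the column sum). In blue and green libraries together, this level was fitted on light color plus the cosine and sine of a 24-h period. Of 4332 genes, out of 23927 gene models, 1724 had a fitted peak from ZT12 to before ZT24 (Zeitgeber time, with lights on at ZT0). The 60 with the largest F for the cosine and sine were taken, leaving out NVE8107, NVE4116, NVE14551 and NVE24214 by name. This changed nothing: NVE8107, NVE4116 and NVE14551 had mean counts of 5.86, 5.47 and 7.83, below the minimum, and NVE24214 peaked at ZT10.5. What the genes did in blue and green light is therefore a description without a test, and only red light and constant darkness (DD) were tested.

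The animals were adults bred in the laboratory from a Maryland population, each sequenced as a whole organism, and neither sex nor genotype of an animal is in the labels. They had been kept for a month in blue, green or red light for 12 h of the day followed by 12 h of darkness, or in DD, where night and day stand for the subjective night and day, and had been starved before sampling. Animals were taken at ZT2, ZT6 and ZT10 of the day and ZT14, ZT18 and ZT22 of the night, 4 for each light condition and time point. A whole animal mixes all its cell types, so fewer cells of a type and less RNA per cell cannot be told apart.

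Most animals keep daily time with a circadian clock, a loop of transcription factors that is set by light and drives the expression of other genes. *Nematostella* has no eyes. Its genome holds cryptochromes and candidate opsins, whose part in its light sensing is not settled, and its candidate clock genes include *nvClock*, cryptochromes and PAR-bZIP factors. A gene that is highest at night can follow such a clock, answer to the loss of light directly, or follow activity and digestion that have their own daily course.

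Of the 96 libraries, 93 had 100000 counts or more (24 blue, 24 green, 23 red and 22 DD, with totals from 104048 to 706046 and a median of 344755). The red light ZT6 and the DD ZT6 and ZT22 groups had 3 animals each. The libraries of blue ZT10 replicate D and blue ZT14 replicate B were the shallowest, at 104048 and 111676 counts, and stood apart in composition: 14.01% and 13.7% of their counts fell on the 8 members above a mean of 1000 CPM. DD ZT2 replicate A followed with 10.8%, red ZT2 replicate B with 9.68% and blue ZT14 replicate D with 9.59%, and no other library was above 7.51%. Across the libraries of every condition this share was higher where the total was lower, and the part of depth in the levels of the abundant members was not tested. Without the first pair of blue libraries the rule returned 46 of the 60 genes, with 9 of 10 that peaked before ZT16, 10 of 11 from ZT16 to ZT20 and 27 of 39 after ZT20.

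**Figure D1:**
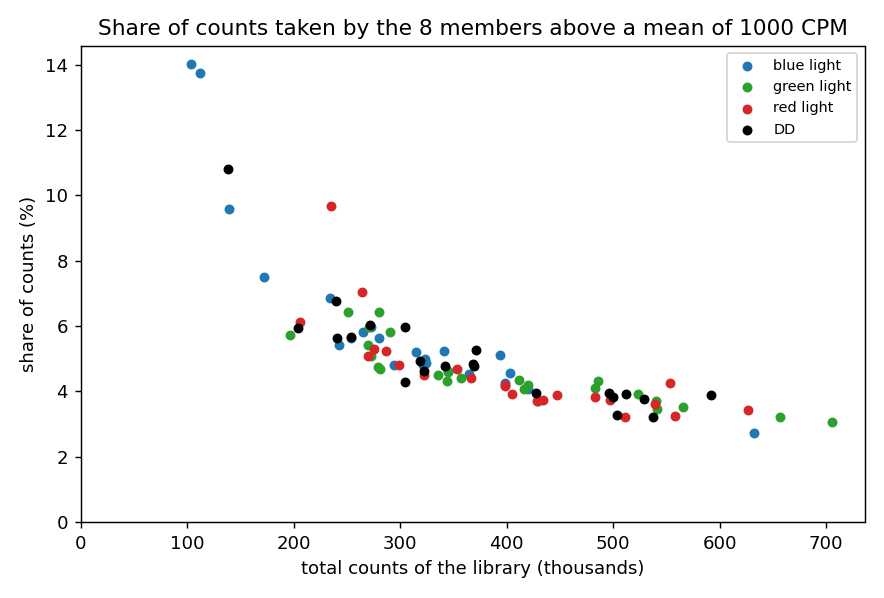
Share of counts, in percent, that fell on the 8 members above a mean of 1000 CPM (y axis) against the total counts of the library in units of 1000 (x axis), 1 point for each of 93 libraries, colored by light condition. The libraries of blue ZT10 replicate D and blue ZT14 replicate B, the shallowest, were at 14.01% and 13.7%, and the share falls toward deeper libraries in all 4 conditions.

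In blue and green light the members fell into 3 classes by fitted peak, 10 from ZT12 to ZT16, 11 from ZT16 to ZT20 and 39 from ZT20 to ZT24. The median difference of night minus day was 0.33 in blue light and 0.22 in green light on the log2(CPM+5) scale, and 56 and 53 of 60 genes were higher at night. The median fitted amplitude, from mean to peak, was 0.51 log2 units in blue light and 0.36 in green light. The highest of the 6 time points was ZT22 for 37 genes in blue light and for 24 in green light, and the lowest was ZT10 for 34 and 20 genes. The depth of the libraries moved with day and night, with median totals of 367498 by day and 287379 at night in blue light and of 414075 and 344343 in green light. With every library thinned to 100000 counts the rule returned 32 of the 60 genes. Without blue ZT10 replicate D and blue ZT14 replicate B the median in blue light was 0.29, and 53 genes were higher at night.

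**Figure D2:**
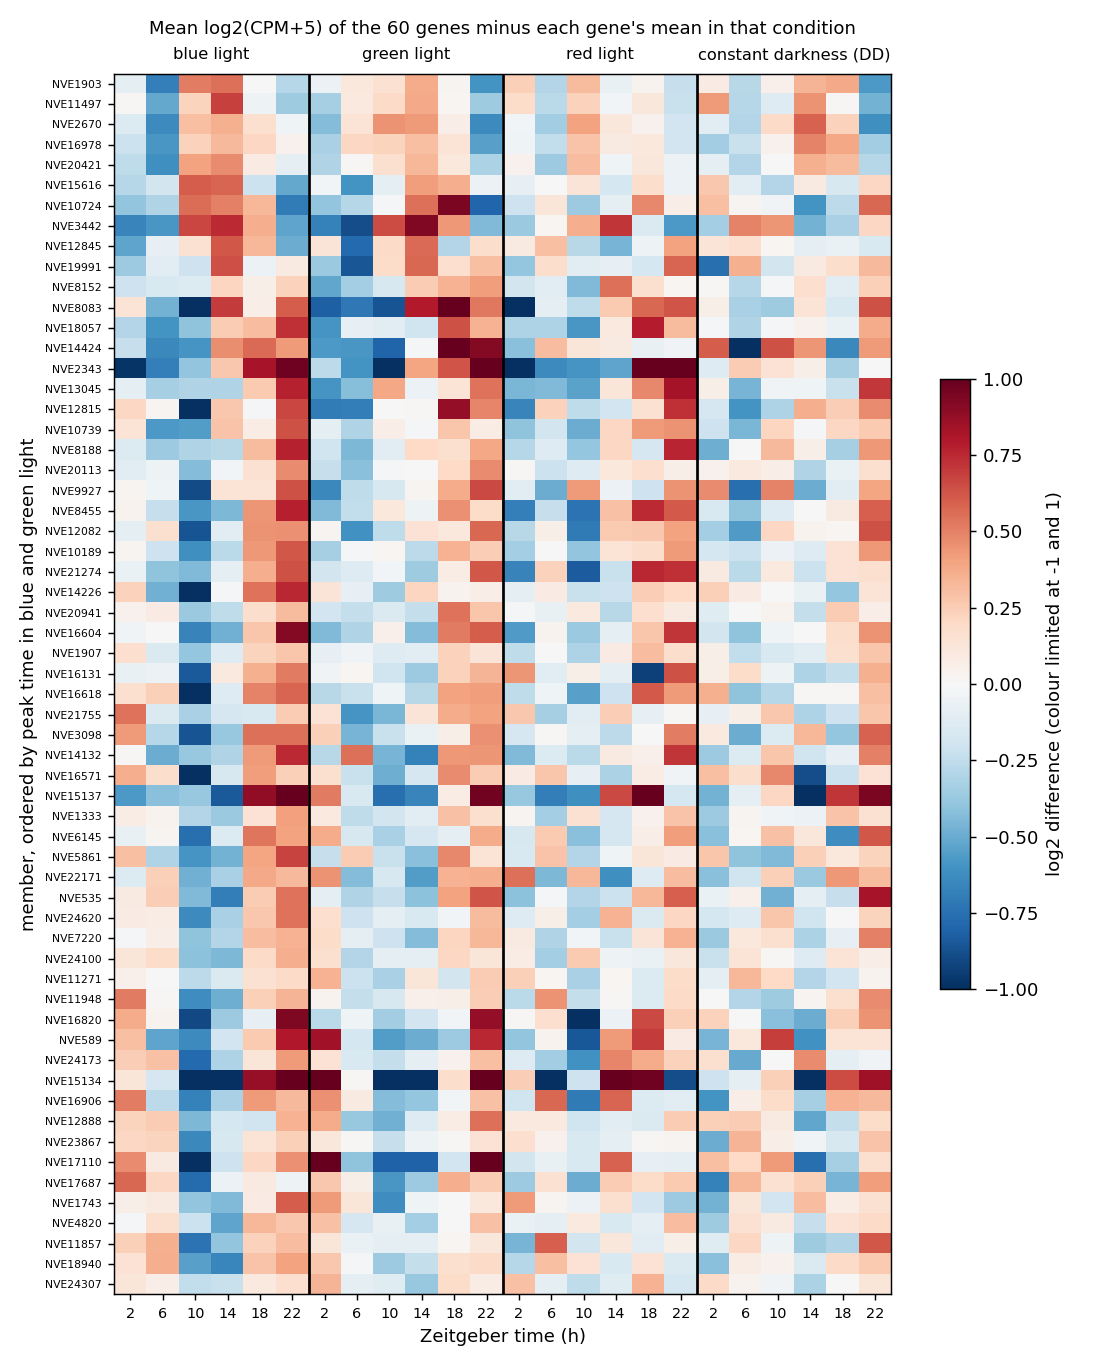
Mean log2(CPM+5) of each of the 60 genes (rows, ordered by peak in blue and green light) at the 6 time points of blue light, green light, red light and DD (columns, Zeitgeber time in h), as the difference from the mean of the gene's time points in that condition. Colors are limited at -1 and 1, and red fields gather at ZT22 in blue light, where 37 genes were highest, and in DD, where 30 were. The DD ZT22 group held 3 animals, with a median total of 503868 counts, the highest of the DD groups.

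The class with an early peak held the most abundant members. NVE1903, NVE11497, NVE20421, the trypsin NVE16978 and NVE2670 had mean levels of 13785, 11678, 10316, 7125 and 2440 CPM and peaks between ZT12.6 and ZT13.7. Trypsins are digestive serine proteases, and NVE2670 is named as a sodium transporting carboxylic acid decarboxylase, a kind of enzyme known from bacteria, where decarboxylation drives the export of sodium. In blue light NVE16978 ran from 3081 to 11110 CPM in 12 day animals, with a median of 7050, and from 5676 to 15773 CPM in 12 night animals, with a median of 8054. In green light the day animals had 4693 to 10593 CPM, with a median of 6426, and the night animals 3559 to 9137, with a median of 6448. Day and night animals overlapped in both colors, and the medians in green light were nearly equal.

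Gene names come from the study's list of differentially expressed genes, called the annotation table here. The gene with the largest F was NVE3442, which is not in the annotation table and peaked at ZT13.98 with F = 16.5. Its mean in green light was 26.5 ± 12.1 CPM at ZT6 and 100.2 ± 22.2 at ZT14 (SD, n = 4 each). In blue light it was 32.1 ± 12.51 CPM at ZT2 and 94.4 ± 35.4 at ZT14, values of the libraries that chose the gene. In red light it was 75.4 ± 20.3 CPM at ZT14, its highest time point, and in DD 26.5 ± 14.6 at ZT14, its lowest. NVE10724, listed there without a hit, was next with F = 13.95 and a peak at ZT13.8. Of the other 13 of the 15 genes with the largest F, NVE20421, NVE2670 and NVE16978 belonged to the early class, and NVE20113 peaked at ZT20.0. NVE16618, NVE1907, NVE21755, NVE6145, NVE1333, NVE7220, NVE16820, NVE12888 and NVE17110 peaked between ZT21.3 and ZT23.4. The last gene inside the list was NVE4820 (F = 6.33, peak at ZT23.6), and the first outside was NVE16461 (F = 6.28, peak at ZT21.4), so the list ended without a gap.

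In red light, whose libraries the rule did not use, the members were mostly higher at night. The median of night minus day was 0.19 on the log2(CPM+5) scale, 45 of 60 genes were above 0, and over all 4332 genes the median was 0.03 with 54.2% above 0. By class, the medians were -0.01 for the early genes (4 of 10 above 0), 0.54 for those from ZT16 to ZT20 (10 of 11) and 0.16 for the late genes (31 of 39). In blue light the same classes had 0.31, 0.62 and 0.28, and in green light 0.19, 0.68 and 0.16. A night-minus-day difference is by construction largest for a peak in the middle of the night, so the classes cannot be compared by its size alone. The fitted peak was within 4 h of that in blue and green light for 42 of 60 genes, against 50.9% of all genes. The middle class kept its time most closely: 10 of its 11 genes peaked within 4 h of the rule's peak, with a median shift of 0.51 h, against 1.75 h in the early and 1.95 h in the late class. NVE18057, which is not in the annotation table, had a fitted amplitude of 0.62 on the log2(CPM+5) scale in red light with a peak at ZT18.9, beside ZT18.7 under the rule. Without red ZT2 replicate B the median of the 60 was 0.16, 44 genes were above 0, and the early class turned to 0.06 with 6 of 10.

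In DD the median was 0.13 with 43 of 60 genes above 0, beside a median of -0.05 over all genes with 42.1% above 0. The early, middle and late classes had medians of 0.09, 0.20 and 0.13, and the shift of the peak had medians of 1.77, 2.66 and 4.48 h. Peaks within 4 h of the rule's peak were found for 31 of 60 genes, beside 46.1% of all genes. This condition leaned on DD ZT2 replicate A: without that animal the median was 0.10, 34 genes were above 0, and the late class had a median of 0.005 with 20 of 39. In both red light and DD 33 of 60 genes were higher at night, against 27.5% of all genes, and 5 were lower in both.

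**Figure D3:**
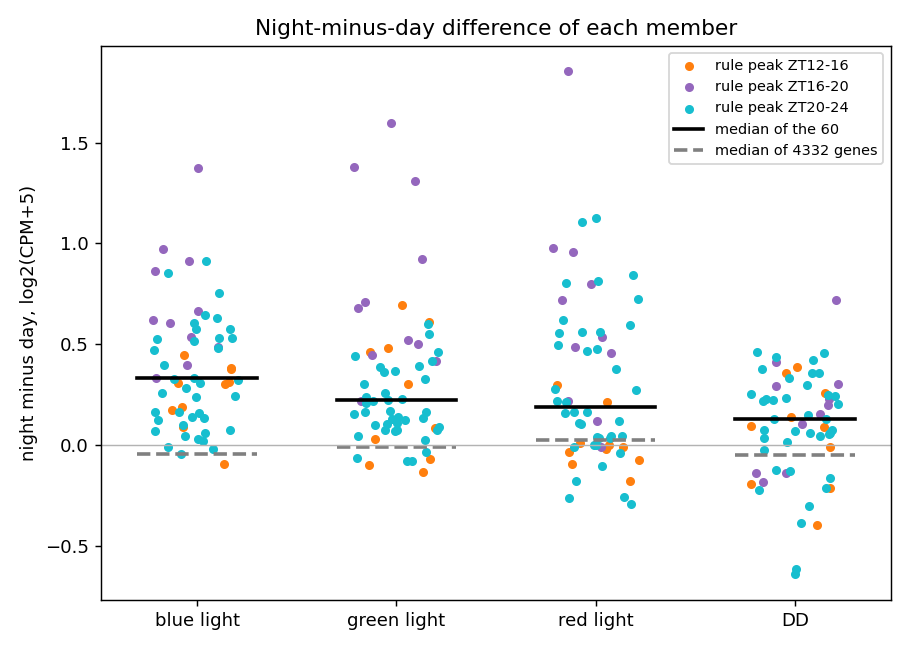
Night minus day on the log2(CPM+5) scale (y axis) for each of the 60 genes in blue light, green light, red light and DD (x axis), colored by peak class, with the median of the 60 (black) and of all 4332 genes (dashed grey). The medians of the 60 were 0.33, 0.22, 0.19 and 0.13, and the blue and green values chose the genes.

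Counts in red light and DD were tested with edgeR's quasi-likelihood F test, two-sided, with Benjamini-Hochberg adjustment over the 4332 genes and a threshold of 10% FDR. For night minus day in red light 4 members passed, all of them higher at night: NVE13045, NVE8455, NVE8083 and NVE2343. Over all genes 39 passed, 0.9% of those tested, and 0.485% passed as higher at night. At an unadjusted p under 0.05 there were 17 members, all higher at night, beside 12.2% of all genes (5.54% as higher at night). The median log2 fold change of the 60 in this fit was 0.17 with 40 above 0, and -0.01 over all genes.

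NVE13045, an uncharacterized protein, showed the clearest difference. In red light its lowest, median and highest levels were 72.4, 95.7 and 144.9 CPM in 11 day animals and 117.9, 189 and 355 CPM in 12 night animals. Of the night animals 11 were above the highest day animal, and the means went from 94.7 ± 11.5 CPM at ZT10 to 257 ± 65.9 at ZT22 (SD, n = 4 each). The log2 fold change was 0.95 with a standard error of 0.13 (adjusted p = 3.24e-05, edgeR). It was also the 1 member with a 24-h pattern in red light past the threshold, with an amplitude of 0.69 log2 units, a peak at ZT19.1 and adjusted p = 0.000234. In DD the 11 day animals had 70.6 to 164 CPM, with a median of 111.8, and the 11 night animals 88.4 to 228, with a median of 125.8. The 3 DD animals of ZT22 lay above all others of that condition, at 198, 218 and 228 CPM, and the log2 fold change there was 0.37 with a standard error of 0.13 (adjusted p = 0.359, edgeR).

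NVE8455, also uncharacterized, was an abundant member with a mean of 1141 CPM. In red light it ran from 131.96 to 1156 CPM in day animals, with a median of 834, and from 992 to 2193 CPM in night animals, with a median of 1382. Of 12 night animals 9 were above the highest day animal, and the lowest day values, 131.96 and 212 CPM, were red ZT2 replicate B and red ZT10 replicate D. The log2 fold change was 0.90 with a standard error of 0.20 (adjusted p = 0.0289, edgeR). The call held in 9 of 16 alternative analyses. Without red ZT2 replicate B it held with 0.80 (adjusted p = 0.0205, edgeR), and it was lost without replicate A, C or D of every group (adjusted p = 0.14, 0.212 and 0.367, edgeR), with all libraries (0.115), with each light fitted alone (0.144), with no filter on counts (0.104) and after thinning (0.511). In DD the medians were 1055 CPM by day and 1258 CPM at night, and the log2 fold change was 0.49 with a standard error of 0.21 (adjusted p = 0.431, edgeR).

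NVE8083, which is not in the annotation table, was a gene of low counts. Day animals in red light had 0 to 80.6 CPM with a median of 44.5, and night animals 50.2 to 113.97 CPM with a median of 76.6. Only 5 of 12 night animals were above the highest day animal, and the value of 0 was that of red ZT2 replicate B. The log2 fold change was 0.83 with a standard error of 0.22 (adjusted p = 0.0749, edgeR). The call held in 7 of 16 alternatives, and was lost without replicate A, C or D of every group (adjusted p = 0.306, 0.22 and 0.5, edgeR). In green light, which chose the gene, 10 of 12 night animals were above the highest day animal. In DD the medians were 49.7 CPM by day and 51.1 at night, with a log2 fold change of 0.47 and a standard error of 0.24 (adjusted p = 0.5, edgeR).

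NVE2343 is named as a pyridoxal-phosphate dependent enzyme, a group that uses vitamin B6 as a cofactor and acts mostly on amino acids. Its difference was the largest of the 4, and its animals were the most unequal. In red light it ran from 21.3 to 301 CPM by day, with a median of 48.1, and from 40.1 to 1063 CPM at night, with a median of 249. The 4 animals of ZT22 had 232, 369, 822 and 1063 CPM, those of ZT18 183, 267, 277 and 860, and those of ZT14 40.1, 69.1, 95.4 and 214, so the high values came in the later part of the night. The log2 fold change was 1.75 with a standard error of 0.46 (adjusted p = 0.0749, edgeR), and without red ZT2 replicate B it was 1.71 (adjusted p = 0.123, edgeR). The call held in 9 of 16 alternatives. It was lost without replicate B, C or D of every group (adjusted p = 0.31, 0.271 and 0.572, edgeR), and without replicate A the adjusted p was 1.69e-05. In DD the median was 62.4 CPM by day and 41.6 at night, and the log2 fold change was -0.01 with a standard error of 0.49 (adjusted p = 0.999, edgeR). The animal with the replicate letter A was the highest of 4 at each of the 9 time points with 4 animals in red light and DD, and the animal with the letter D at each of the 6 time points in green light. The labels do not say what a letter stands for.

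The genes next in order in red light were NVE16618 and NVE16604, both outside the annotation table and both of the late class. NVE16618 had a log2 fold change of 0.56 with a standard error of 0.16 (adjusted p = 0.105, edgeR), and its 24-h pattern stood at the threshold with an amplitude of 0.50 and a peak at ZT20.0 (adjusted p = 0.1002, edgeR). NVE16604 had 0.56 with a standard error of 0.16 (adjusted p = 0.112, edgeR).

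**Figure D4:**
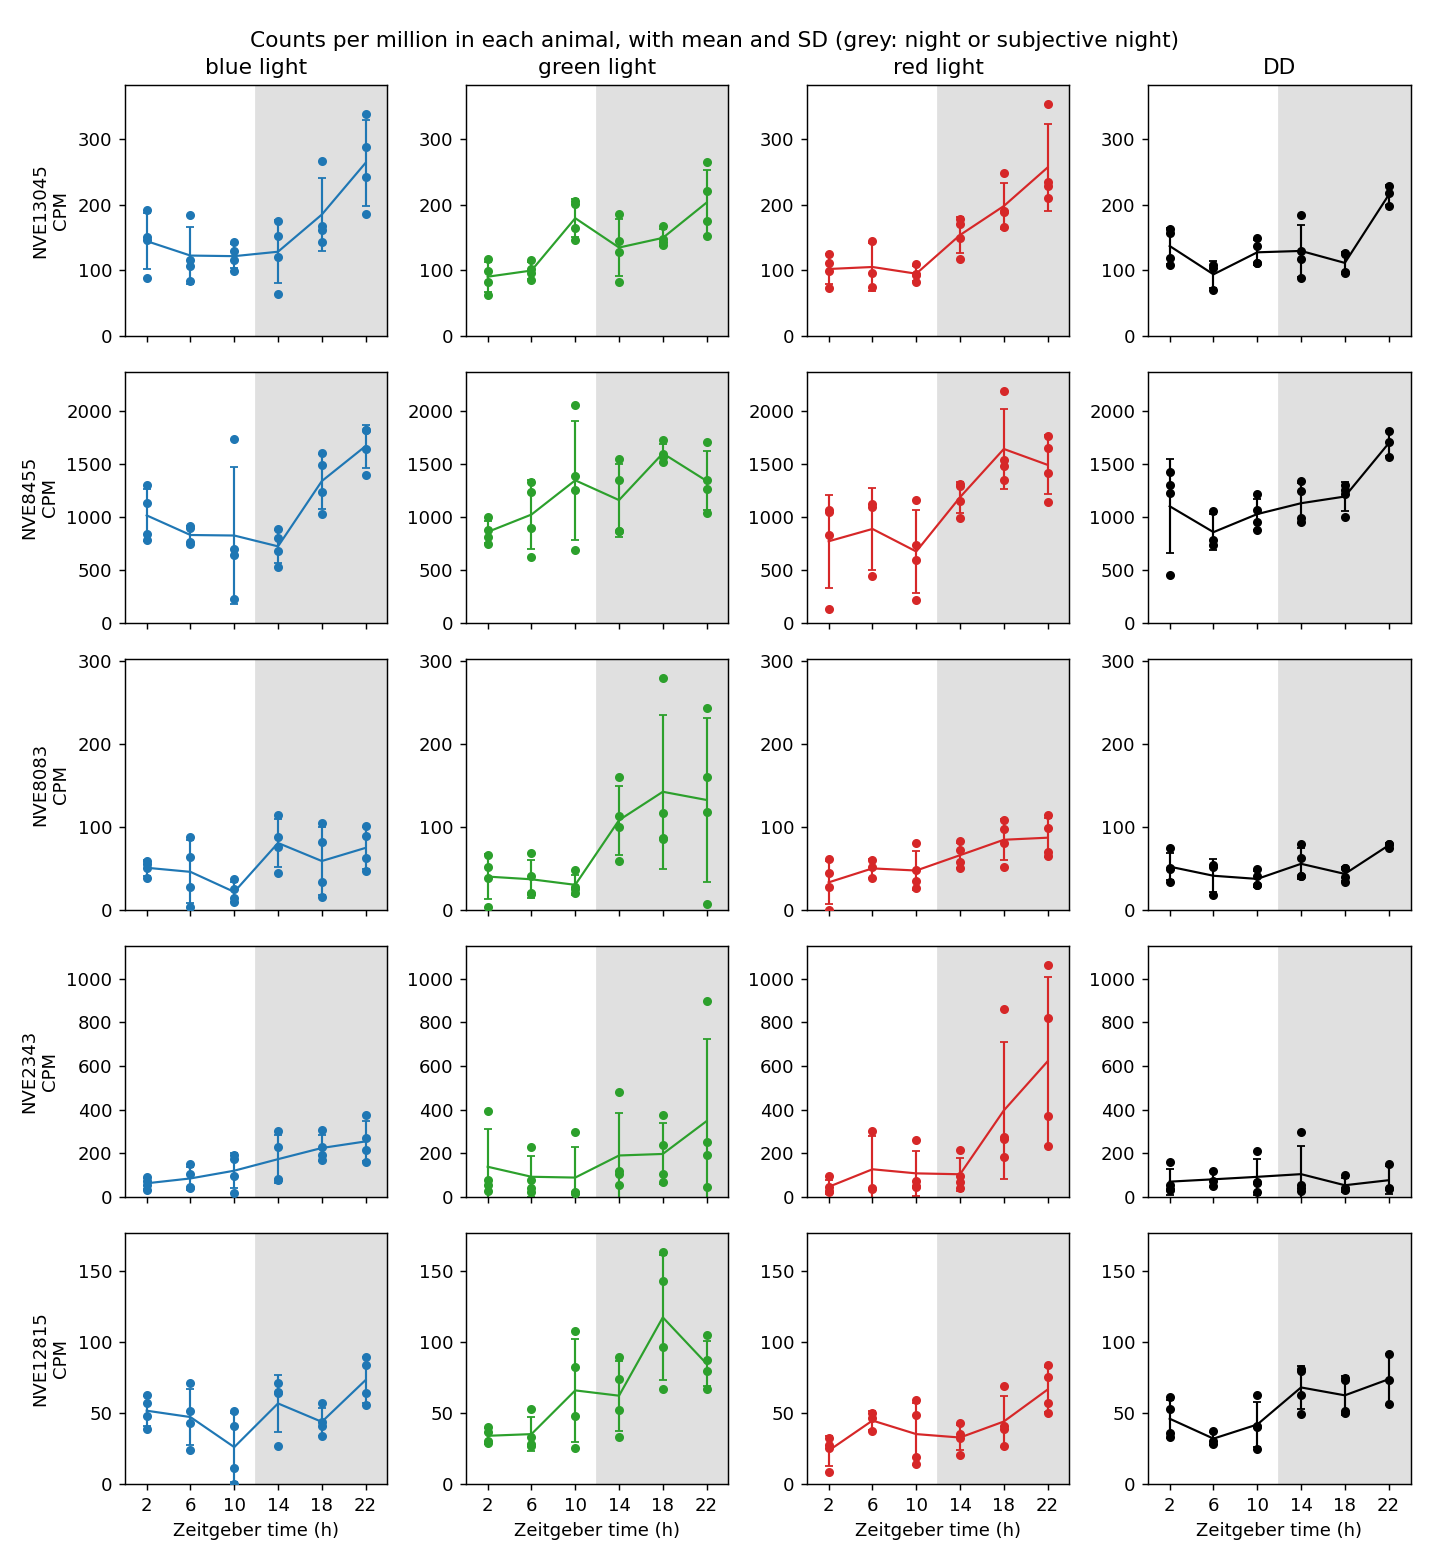
CPM of NVE13045, NVE8455, NVE8083, NVE2343 and NVE12815 (y axes, from 0) against Zeitgeber time in h (x axes) in blue light, green light, red light and DD, 1 point for each animal, with the mean and SD of each time point and the night shaded grey. For NVE13045 in red light, 11 of 12 night animals lay above the highest day animal.

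In DD 1 member passed for night minus day, NVE12815, an uncharacterized protein, beside 0.3% of all genes (0.185% as higher at night). It had 24.4 to 62.3 CPM in 11 animals of the subjective day, with a median of 37.4, and 49.2 to 91.7 CPM in 11 animals of the subjective night, with a median of 73.4. Of the night animals 7 were above the highest day animal and all 11 above the day median. The log2 fold change was 0.85 with a standard error of 0.19 (adjusted p = 0.0736, edgeR), and it kept its side of the threshold without DD ZT2 replicate A (adjusted p = 0.0631, edgeR). In red light the medians were 32.5 CPM by day and 41.7 at night, with a log2 fold change of 0.42 and a standard error of 0.19 (adjusted p = 0.381, edgeR). The call held in 8 of 16 alternative analyses, and was lost with replicate A, B, C or D left out of all groups (adjusted p = 0.124, 0.217, 0.176 and 0.387, edgeR) and with column sums in place of TMM. At an unadjusted p under 0.05 there were 10 members in DD, 9 of them higher at night, beside 10.1% of all genes (5.26% as higher at night). The member next in order was NVE13045, followed by NVE16604, a gene outside the annotation table, with a log2 fold change of 0.46 and a standard error of 0.17 in DD (adjusted p = 0.36, edgeR).

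The difference between red light and DD in night minus day was tested as such. By edgeR 0 genes passed, 0% of those tested, and by DESeq2 1 gene passed, which was not a member. At an unadjusted p under 0.05 were 3 of 60 members (NVE13045, NVE2343 and NVE22171), a share near the 5.68% of all genes. For NVE13045 the red difference exceeded that in DD by 0.59 with a standard error of 0.18 (adjusted p = 0.586, edgeR), and for NVE2343 by 1.76 with a standard error of 0.67 (adjusted p = 0.716, edgeR). For NVE12815 it was lower in red light by a log2 difference of -0.43 with a standard error of 0.27 (adjusted p = 0.963, edgeR). NVE8455 had 0.41 with a standard error of 0.29 (adjusted p = 0.987) and NVE8083 0.36 with a standard error of 0.32 (adjusted p = 0.994). The count of genes past the threshold in this test changed when the animals with the letter A were left out. These animals also had the highest NVE2343 at the 9 time points with 4 animals in red light and DD. Without replicate A of every group 9 genes passed, 1 of them a member, NVE2343, whose difference was then 2.43 (adjusted p = 0.00235, edgeR). With the letter as a block 7 genes passed, and NVE2343 was the 1 member among them. For NVE13045, NVE8455, NVE8083 and NVE12815 the difference between red light and DD passed in none of the alternatives run.

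The 24-h pattern was past the threshold in red light for 1 member, NVE13045, beside 0.369% of all genes, and at an unadjusted p under 0.05 for 13 members, all with a fitted peak in the night, beside 8.52% (4.34% with a peak in the night). In DD edgeR called 0 genes (0%), DESeq2 called 15 genes and 1 member, NVE12815, and 12 members were at an unadjusted p under 0.05, beside 9.74%. The enzymes of the early class gave an example. The trypsin NVE16978 had 8191 to 10620 CPM in the 4 DD animals of ZT14 and 7555 to 9114 at ZT18, against 4753 to 5557 in the 3 of ZT22. At ZT2 3 animals had 3809, 3852 and 4857 CPM, and DD ZT2 replicate A had 9388. With all animals its amplitude in DD was 0.44 log2 units with a peak at ZT15.0 (adjusted p = 0.412, edgeR), and without DD ZT2 replicate A 0.64 (adjusted p = 0.0812, edgeR). NVE2670 had 2509 to 4021 CPM at ZT14 and 1080 to 1830 at ZT22, with an amplitude of 0.48 and a peak at ZT13.8 (adjusted p = 0.243, edgeR), and 0.59 without that animal (adjusted p = 0.0848, edgeR). The DD libraries had median totals of 288123 counts at ZT14 and 247361 at ZT18, against 435370 at ZT2 and 503868 at ZT22. DD ZT2 replicate A had 138366. The part of depth in the levels of NVE16978 and NVE2670 in DD was not tested. In red light NVE16978 and NVE2670 had fitted peaks at ZT12.9 and ZT12.5 with amplitudes of 0.18 and 0.21 on the log2(CPM+5) scale.

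**Figure D5:**
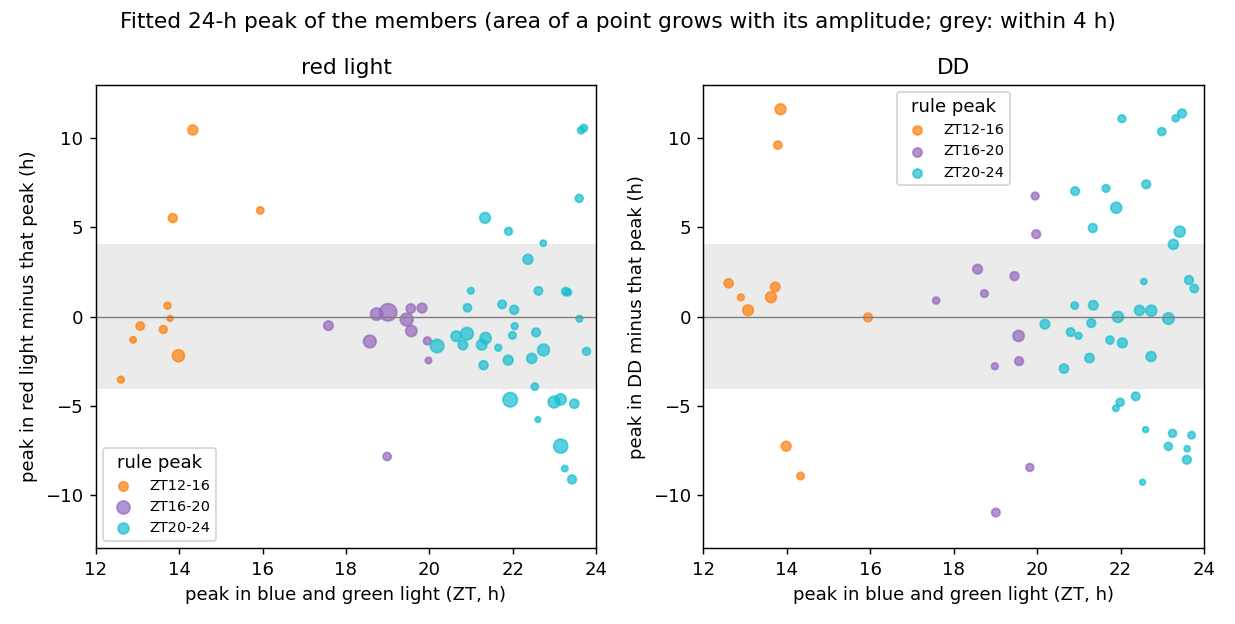
Fitted 24-h peak of each of the 60 genes in red light (left) and DD (right), as the difference in h from its peak in blue and green light (y axis), against that peak (x axis, Zeitgeber time in h). The area of a point grows with the amplitude, colors show the peak class, and the grey band, within 4 h, holds 42 genes in red light and 31 in DD.

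A 12-h pattern, with 2 peaks in a day, was tested in the same way. In red light edgeR and DESeq2 each called 0 genes (0%), and 9 members were at an unadjusted p under 0.05, beside 4.73% of all genes. The smallest p values were those of NVE24100 and NVE2343 (adjusted p = 0.942 each, edgeR). In DD 2 genes passed, 0.0462%, with 0 members by edgeR and 0 by DESeq2, and 10 members were at an unadjusted p under 0.05, beside 8.89%. NVE11497 had the smallest p there, with an amplitude of 0.64 log2 units (adjusted p = 0.317, edgeR).

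Over the whole day, 20 members differed in level between red light and DD, 16 of them lower and 4 higher in red light. This test called 23.5% of all genes (11.9% as lower and 11.6% as higher in red light), and the members called were 33.3% of the 60 (26.7% as lower). At an unadjusted p under 0.05 there were 22 members, beside 30.4% of all genes. NVE22171, an uncharacterized protein, had 32.6 to 142.5 CPM in 23 red light animals, with a median of 82.4, and 28.9 to 191 CPM in 22 DD animals, with a median of 116.1. The ranges overlapped, and the log2 fold change of red light minus DD was -0.71 with a standard error of 0.13 (adjusted p = 0.000426, edgeR). NVE24173, also uncharacterized, ran from 8.51 to 146 CPM in red light, with a median of 80.6, and from 66.5 to 233 in DD, with a median of 116.9, with a log2 fold change of -0.82 and a standard error of 0.17 (adjusted p = 0.000956, edgeR). NVE11271, a universal stress protein of a family first described in bacteria, had -0.30 with a standard error of 0.08 (adjusted p = 0.0137, edgeR), NVE12815 -0.45 with 0.14 (adjusted p = 0.0198) and NVE16618 -0.36 with 0.11 (adjusted p = 0.0219). Among the 4 genes higher in red light were NVE2343 and NVE6145, the others being NVE17110 and NVE19991. Summed CPM of the keyword groups of muscle and of cnidocyte and venom genes is given here without a test. The genes of these groups come from the study's list of differentially expressed genes of these same libraries. They were therefore not chosen independently of light. The 24 muscle genes had medians of 6512 CPM by day and 5703 at night in red light against 4600 and 4635 in DD. Their ranges were 4233 to 8023 and 3153 to 6068. The 5 cnidocyte and venom genes went the other way, with medians of 728 and 758 in red light against 1032 and 921 in DD. Their ranges, 479 to 1094 and 644 to 1367, overlapped. The part of these groups in the members' levels was not tested. With column sums in place of TMM 16 members were called, 4 of them higher, while of all genes called 68.5% were higher in red light against 49.2% with TMM.

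Of the 60 genes, 20 are in the annotation table, which is the study's list of differentially expressed genes, beside 1151 of the 4332 genes tested. Of those 20 members, 10 have a name. Absence from it does not mean that a gene has no known function. Among genes that make or build ribosomes, NVE1333 and NVE24100 are ribosomal proteins at means of 1967 and 2075 CPM, and NVE18940 is nucleolar GTP-binding protein 1, which in yeast acts in the assembly of the large ribosomal subunit. NVE1333 ran in DD from 795 to 2359 CPM by day, with a median of 2208, and from 1686 to 2929 at night, with a median of 2275. In red light its medians were 1855 and 1950 CPM, and no night-minus-day test of the 3 genes passed in either condition. NVE1333 and NVE24100 were 2 of the members lower in red light than in DD. The 37 ribosomal protein genes of the annotation had summed medians of 63535 CPM by day and 65661 at night in red light, against 70145 and 73643 in DD.

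The profilin NVE10189, which binds actin monomers, was at 163 to 675 CPM by day in red light, with a median of 509, and at 442 to 832 at night, with a median of 702. In DD the medians were 606 and 721 CPM. Night exceeded day in each condition by medians that overlapped between animals, and the adjusted p was 0.196 in red light and 0.383 in DD by edgeR, while DESeq2 called it in red light (adjusted p = 0.085). NVE535, named as an ester hydrolase, had red light medians of 96.1 CPM by day and 144 at night and DD medians of 82.01 and 110.4 (adjusted p = 0.414 and 0.533, edgeR). NVE6145, with a pleckstrin homology domain of the kind that binds membrane lipids, had red light medians of 48.8 and 56.9 and DD medians of 35.3 and 31.5 CPM. NVE11271 had DD medians of 216 CPM by day and 177 at night, the opposite order from blue light, where they were 168 and 194.

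Members that varied together between animals of the same light and time point formed small sets. The mean of each light and time point was first taken from log2(CPM+5), so the course over the day is not in these values. Over the 93 libraries, NVE1903, NVE20421 and NVE11497 had pairwise Pearson correlations of these deviations of 0.91 to 0.95. Those of NVE16978 and NVE2670 were 0.90, of the ribosomal protein genes NVE1333 and NVE24100 0.92, and of NVE10189 and NVE24620 0.85. A further set of late genes, NVE15134, NVE15137, NVE17110 and NVE589, had pairwise correlations of 0.71 to 0.80. These values describe libraries that share their depth and composition, including those that stood apart, and carry no test. Within single conditions the median correlation of the same deviations over all 1770 pairs was 0.04 to 0.13.

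For comparison, the 60 genes chosen by the same rule with a peak from ZT0 to before ZT12 had medians of -0.20 in red light and -0.13 in DD in the edgeR fit, with 2 and 0 genes called, beside 0.17 in each condition for the night-peaking genes. Of the candidate clock genes 6 were tested, with medians of -0.36 in red light and -0.45 in DD. In red light they ran from -1.49 for NVE14677 to 0.54 for NVE8085. NVE14677, NVE8679 and NVE8085 are also among the day-peaking genes, so these lists are not separate. None was past the threshold for night minus day by edgeR, and 3 and 1 were at an unadjusted p under 0.05. Annotation groups are given as counts, with no test of a group. Their genes come from the study's list of differentially expressed genes of these same libraries. The 0.9% of all genes called in red light is therefore no baseline for them. In red light 2 of 34 ribosomal protein genes, 2 of 25 peptidases, 3 of 58 cytoskeletal genes and 3 of 21 genes of ubiquitin and the proteasome passed, and so did 1 of 17 genes of gland and digestion, 1 of 3 of germ line and yolk and 1 of 20 of muscle. None of 13 chaperones, 18 matrix genes, 20 genes of splicing or RNA binding, 10 transporters, 5 cnidocyte and venom genes and 4 neuronal genes passed by edgeR. In DD no gene of these groups passed by edgeR. The members in them were the 2 ribosomal protein genes and the trypsin.

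The trypsin also belongs to the 19 annotated genes of gland and digestion, whose summed level in DD was 7370 to 11694 CPM by day, with a median of 8740, and 7846 to 14133 at night, with a median of 11285. In red light the medians were 9687 and 10919 CPM, with ranges of 7925 to 15967 and 8017 to 12627. These sums contain NVE16978 itself, at medians of 5695 CPM by day and 8443 at night in DD and 5979 and 6474 in red light. They are therefore not a measure separate from that gene. The part of this list in the early members was not tested. Summed medians by condition and by day or night were 691 to 1032 CPM for 5 cnidocyte and venom genes, 1326 to 1576 for 6 genes of germ line and yolk, and 341 to 417 for 9 neuronal genes.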

How the data were processed

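Expression was measured by tag-based RNA sequencing, which yields reads from a short stretch of each transcript, so counts are not corrected for length. Per the labels and methods, the authors removed PCR duplicates, mapped reads to a *Nematostella* gene set with Bowtie2 (version not given in the sources used here) and deposited whole-number counts, without normalization, for 23927 gene models in 96 libraries. Genes are named by NVE identifiers. Names come from the study's list of genes differentially expressed by color and time, called the annotation table here, which holds 1151 of the 4332 genes tested. No column was left over (0 unmatched).

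The members, lists and tests were chosen with earlier results of these data known. CPM were computed from column sums with Python 3.11.15 (numpy 2.4.6, pandas 2.3.3, matplotlib 3.10.9). Red light and DD libraries were fitted together in edgeR 4.0.16 (limma 3.58.1, R 4.3.3) with TMM and 12 groups of 1 time point each. Blue and green libraries stayed out of this fit, because they chose the members. Contrasts were 24-h and 12-h cosine and sine pairs, night minus day, its difference between conditions, and red minus DD. P-values are two-sided, adjusted by Benjamini-Hochberg over 4332 genes at 10% FDR, and standard errors were derived from F. The fit and the rule were tested on simulated data. Alternatives were DESeq2 1.42.0, all libraries, other filters, RLE or column sums, other sets of libraries in the fit, a replicate block, thinning to 100000 counts and each replicate left out. Leaving out blue ZT10 replicate D and blue ZT14 replicate B, red ZT2 replicate B, or DD ZT2 replicate A was chosen after seeing the data.

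Named genes were the 15 members of largest F, members past 10% FDR (the 5 of smallest p where more passed), the 3 of smallest p for night minus day in red light and in DD, those with an annotation, and the genes at the edge of the list. NVE1903, NVE11497, NVE18057, NVE24620, NVE19991, NVE15134, NVE15137 and NVE589 were named after their values were seen. A count of 0 allows up to 3 counts, which is 28.8 CPM in the shallowest library, blue ZT10 replicate D, and covers counting error only. Pairs of libraries of a group differed by 2.73 to 22.3 in chi-square per degree of freedom, more than sampling noise gives, so each library was counted as 1 sample. Each animal is 1 replicate.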

Additional observations from a re-analysis of the deposited data

Results flagged for a closer look

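A test for an animal far from the other 3 of its time point was run on 66 groups of 4, for the mean of the 60 genes and for the 5 genes called, and picked out 6 values. Chance picks about 1 in 20 groups. The mean log2 deviation of the 60 genes in red ZT2 replicate B was -0.638, below the other animals of that time point. NVE13045 was at 355 CPM in red ZT22 replicate D, against 211 to 235 in the others. NVE2343 stood out 4 times, each time in an animal with the letter A: 300.0 CPM in DD ZT14 (others 26.2 to 53.8), 102.2 CPM in DD ZT18 (34.5 to 41.6), 261 CPM in red ZT10 (48.1 to 75.8) and 860 CPM in red ZT18 (183 to 277).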

How the results depend on the processing

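Calls in red light and DD depended on the processing more than directions did. Of the values of single genes under an alternative, 214 kept their direction and side of the threshold, 44 lost the threshold, 2 passed it and 2 changed sign. Both sign changes came with thinning of every library to 100000 counts: -0.30 for NVE13045 in DD and 0.43 for NVE12815 in the difference of red minus DD, neither past the threshold in any setting. NVE13045 in red light passed in 15 of 16 alternatives (adjusted p = 0.577 after thinning, edgeR), NVE8455 and NVE2343 in 9 each, NVE8083 in 7, and NVE12815 in DD in 8. Depth is the limit shown by thinning, which left 1 gene for night minus day in red light, 0 in DD, 0 for either 24-h pattern, 0 for the 12-h pattern in DD, 22 for the level, and 0, 0, 0 and 1 members for red night minus day, DD night minus day, the red 24-h pattern and the level.

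DESeq2 called 49 and 15 genes for the 24-h pattern in red light and DD, 93 and 38 for night minus day, 1 for the difference and 24 for the 12-h pattern in DD, with 4, 1 and 9 members in the red 24-h pattern, the DD 24-h pattern and red night minus day. With all libraries 4 genes were called for the DD 24-h pattern, 20 for red night minus day and 21 for the DD 12-h pattern. A minimum mean count of 3 gave 5 and 2 genes for the 24-h patterns, 20 and 1 for night minus day with 2 and 0 members, and 1 for the DD 12-h pattern. No filter gave 3 genes for the DD 24-h pattern, 16 and 6 for night minus day with 2 and 0 members, 3 for the difference, 1 and 16 for the 12-h patterns, 665 with 5 members for the level, and 2 members for the red 24-h pattern. Column sums gave 6 genes for the red 24-h pattern, 23 for red night minus day, 0 for the DD 12-h pattern and 0 members for DD night minus day, and among the 12 genes called there in DD 33.3% were higher at night, against 61.5% of 13 with TMM. RLE gave 2 members for the red 24-h pattern. A fit of all 24 groups gave 7 genes for the DD 24-h pattern, 6 for the DD 12-h pattern and 2 members for the red 24-h pattern. Each light fitted alone gave 9 genes for the red 24-h pattern, 11 and 4 for night minus day with 1 member in red light, and 0 for the DD 12-h pattern.

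Leaving out single replicates or the libraries that stood apart gave 0 to 24 genes and 0 to 3 members for the red 24-h pattern, 0 to 8 and 0 to 2 for that in DD, 2 to 76 and 1 to 6 for red night minus day, and 0 to 21 and 0 to 1 for DD. The difference gave 0 to 9 and 0 to 1, the red 12-h pattern 0 to 1 and 0 to 1, the DD 12-h pattern 0 to 6 genes, and the level 621 to 1110 and 7 to 24. The rule returned 30 to 41 of the 60 genes with a replicate letter left out, 46 without the pair of blue libraries, 32 after thinning, 41 with TMM, 43 with a mean count of 3, 52 with the residual of time points and 53 with a pseudocount of 1.

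The labels do not say that a replicate letter pairs animals, so the main fit did not use the letters. Correlations of deviations between libraries of the same letter ran from -0.273 to 0.399 with a mean of 0.022. For other letters they ran from -0.405 to 0.396 with a mean of -0.007. Of 45 libraries, 24 were nearest to their own letter among the letters A to D. Whether animals of a letter share something was not tested. A replicate block gave 33 and 2 genes for the 24-h patterns, 68 for red night minus day, 7 for the difference, 1 and 4 for the 12-h patterns, with 3 members in the red 24-h pattern, 1 in the difference and 1 in the red 12-h pattern. The last pair was NVE2343, with a difference of 2.07 (adjusted p = 0.000603, edgeR), and 2.43 without replicate A (adjusted p = 0.00235, edgeR).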
